A study of Mus musculus with 7 samples.

Results

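Ccr7, Ccl17, Ccl22, Cxcl13 and Fscn1 are genes of the traffic of dendritic cells and lymphocytes, and their messenger RNA was followed here in macrophages sorted from mouse tumours. The members were found by matching these 5 symbols to the Ensembl gene identifiers of the deposited expression files. All 5 were found among the 24084 genes listed, and all 5 were among the 16226 genes that passed the filter on low counts. They were selected on their CPM in these same libraries, since earlier results showed most of them low in the Dicer1-deleted group. Their difference between the groups is therefore given as a description. Calls on them from the fits over all genes are not read as a test.

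The study asked what the microRNA-processing enzyme DICER does in tumour-associated macrophages. Lewis lung carcinoma cells, a mouse lung tumour line, were injected under the skin, and F4/80+ cells were sorted by flow cytometry from established tumours. RNA was amplified from full-length complementary DNA and sequenced in read pairs. The Dicer1-deleted group holds 3 libraries from mice that carry LysM-Cre and floxed Dicer1 (LysM-Cre;Dicer-/-, called D-/-), and the control group holds 4 libraries from LysM-Cre mice with intact Dicer (D+/+). Both groups thus carry the Cre allele, described as homozygous, and both carry the tumour. LysM-Cre acts in the myeloid lineage, in monocytes, macrophages and neutrophils, so cells of other lineages in the sort keep Dicer1. Replicate numbers only name libraries. Nothing in the labels ties a library to an animal of its own, so p-values here reflect only how much these libraries vary, which may be technical. The titles also hold a code, L4 for Dicer1-deleted libraries 2 and 3 and control library 2, and L5 for the other 4, whose meaning is not stated there.

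CCR7 is the chemokine receptor that guides maturing dendritic cells, and T cells, toward lymph nodes along its ligands CCL19 and CCL21. Fascin, the product of Fscn1, bundles actin in the long processes of mature dendritic cells, and it accompanies Ccr7 in dendritic cells that have switched to the migratory state. CCL17 and CCL22 both act on the receptor CCR4, found on regulatory and type-2 helper T cells, and are made by dendritic cells and by macrophages that have seen interleukin 4. CXCL13 binds CXCR5 and draws B cells and follicular helper T cells into lymphoid follicles, and some tissue macrophages also make it.

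Ccl22 and Ccl17 lie in the same direction on chromosome 8, 58753 bases apart, with Cx3cl1 as the only protein-coding gene between them. Their promoters, and that of Cxcl13, are shown because these are the ligand genes with the widest distance between the groups, and because a shared neighbourhood can be compared letter by letter. The sequences are RefSeq's on GRCm38.p6, 5′ to 3′, from 250 bases before to 50 bases after the gene's start, with motif matches in capitals.
Ccl17 promoter, chr8:94810203-94810502, plus strand: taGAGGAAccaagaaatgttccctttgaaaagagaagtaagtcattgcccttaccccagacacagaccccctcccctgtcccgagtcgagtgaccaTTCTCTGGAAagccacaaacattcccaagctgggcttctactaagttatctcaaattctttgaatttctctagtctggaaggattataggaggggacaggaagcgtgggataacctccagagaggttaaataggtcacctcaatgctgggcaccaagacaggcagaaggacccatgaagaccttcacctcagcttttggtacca
Ccl22 promoter, chr8:94745434-94745733, plus strand: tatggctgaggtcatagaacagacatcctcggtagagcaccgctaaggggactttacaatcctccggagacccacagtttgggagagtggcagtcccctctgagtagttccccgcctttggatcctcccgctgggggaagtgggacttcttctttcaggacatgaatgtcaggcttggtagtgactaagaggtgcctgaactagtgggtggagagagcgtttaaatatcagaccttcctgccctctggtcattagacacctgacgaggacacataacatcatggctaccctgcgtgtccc
Cxcl13 promoter, chr5:95956689-95956988, plus strand: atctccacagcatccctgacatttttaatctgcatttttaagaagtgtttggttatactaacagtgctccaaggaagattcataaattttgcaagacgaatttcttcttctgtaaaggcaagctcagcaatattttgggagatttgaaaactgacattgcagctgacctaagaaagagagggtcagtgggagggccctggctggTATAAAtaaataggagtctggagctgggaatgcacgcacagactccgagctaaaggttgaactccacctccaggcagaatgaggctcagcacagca
The motifs searched on both strands were TTC and GAA spaced by 4 free bases, the form bound by STAT6, GGG and TTTCC spaced by 2 free bases for NF-kB, GAGGAA as the core bound by PU.1, GAAA and GAAA spaced by 2 free bases for interferon regulatory factors, and the TATA box TATAAA. In the Ccl17 window, the STAT6 form begins at offset -154 from the start and GAGGAA at offset -248. The STAT6 form was found in 6.95% of the 32851 promoters in the table, and GAGGAA in 28.3% of them. The Ccl22 window held none of the 5 motifs, which says only that these letters are not in these 300 bases. The Cxcl13 window held TATAAA at offset -46 and the Fscn1 window held it at offset -31, a motif found in 13.6% of promoters. Each match is a description of letters and not a measured binding site.

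Because DICER makes mature microRNAs, the 3′ UTR of each gene was also read for matches to the seeds (bases 2 to 8) of microRNAs that are common in myeloid cells. A match is a 7-base complement of the seed, and an 8-mer match also has an A after it. The microRNA sequences below, from RefSeq, have the seed in capitals and are those with an 8-mer match in a member.
let-7a-5p: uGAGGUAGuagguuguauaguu
let-7b-5p: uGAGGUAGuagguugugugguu
miR-21a-5p: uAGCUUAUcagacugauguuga
miR-23a-3p: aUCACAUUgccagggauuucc
miR-27a-3p: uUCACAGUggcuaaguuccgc
let-7a-5p and let-7b-5p share a seed and are counted as 1 of the 21 seeds searched. The matching stretches of the mouse 3′ UTRs follow, written as DNA with the 7 matched bases in capitals.
Ccr7, let-7 match: cccacttataaCTACCTCaaccaaagctgt
Ccl22, let-7 match: ctctggtccctCTACCTCccctctatccct
Ccl22, miR-21a-5p match: tgtttggtattATAAGCTatagttatattt
Ccl22, miR-27a-3p match: cacatagatcaACTGTGAaaccctaaattt
Cxcl13, miR-23a-3p match: cctacatgtcaAATGTGAacttgtagctcg
The let-7 match of Ccr7 begins at base 166 of a 3′ UTR of 762 bases and is an 8-mer, a match that 4.35% of 12149 tested genes have. Ccl22 had matches for 7 seeds in 1813 bases, including 8-mers for miR-21a-5p at base 930 and miR-27a-3p at base 768. Cxcl13 had matches for 4 seeds in 800 bases, including an 8-mer for miR-23a-3p at base 365. Fscn1 had matches for 3 seeds in 1087 bases and no 8-mer, and Ccl17 had none in 183 bases. The median over all 12149 genes was 2 seeds in a 3′ UTR of 1322 bases, so UTR length differs along with the count of matches. MicroRNA levels were not analysed here, and whether any of these matches is used was not tested.

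The libraries held 42974524 to 51152370 uniquely placed reads. Dicer1 itself averaged 7.52 ± 0.572 CPM in Dicer1-deleted libraries (SD, n = 3) and 16.8 ± 1.35 CPM in control libraries (SD, n = 4), and the groups did not overlap. CPM is the read count put on a common library size, scaled with the trimmed mean of M-values, and each read pair counts as 2 reads. Every value over the 5 genes rests on whole read pairs, and 3 pairs correspond to 0.109 to 0.152 CPM depending on the library. Across all genes the fit by edgeR's quasi-likelihood test called 4 genes at an adjusted p under 0.05, which is 0.0247% of those tested, and 1300 genes had an unadjusted p under 0.05. DESeq2, on the same counts, called 150 genes higher, which is 0.925%, and 255 genes lower, which is 1.57%. None of the 5 genes overlaps another annotated gene on its position in GENCODE M21 (GRCm38), and at most 0.18 of a read per library was multiply placed on any of them.

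Ccr7 (ENSMUSG00000037944 in the files), the receptor, lies on chr11:99144196-99155077 on the minus strand. It stood at 1.04, 1.47 and 0.427 CPM in Dicer1-deleted libraries 1 to 3, against 8.01, 1.62, 25.2 and 2.37 CPM in control libraries 1 to 4. Every Dicer1-deleted library was below every control library, but Dicer1-deleted library 2 lay just under control library 2, at 29 against 36 read pairs. The mean was 0.979 ± 0.526 CPM in Dicer1-deleted libraries (SD, n = 3) and 9.30 ± 11 CPM in control libraries (SD, n = 4). The fitted log2 fold change was -3.25 with a standard error of 0.98. Here and below, this standard error is the absolute log2 fold change divided by the square root of edgeR's quasi-likelihood F statistic. The control SD is larger than the control mean because control library 3 alone holds 67.7% of the summed control CPM, and the fitted log2 fold change without that library was -2.03. In RNA from a sorted pool, fewer cells that carry Ccr7 and less Ccr7 RNA in each cell cannot be told apart, and this holds for every gene described here.

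Ccl22 (ENSMUSG00000031779), a ligand of CCR4, lies on chr8:94745590-94751699 on the plus strand. It stood at 2.82, 1.02 and 0.896 CPM in Dicer1-deleted libraries 1 to 3, against 15.8, 2.92, 30.1 and 3.42 CPM in control libraries 1 to 4. The groups did not overlap in scaled CPM, but Dicer1-deleted library 1 and control library 2 were nearly level, at 68 and 65 read pairs. On the authors' RPKM these 2 libraries stood in the opposite order, at 1.21 and 1.17, so the groups overlapped on that scale. The mean was 1.58 ± 1.08 CPM in Dicer1-deleted libraries (SD, n = 3) and 13.1 ± 12.8 CPM in control libraries (SD, n = 4), and the fitted log2 fold change was -3.04 with a standard error of 0.89. As with Ccr7, control libraries 1 and 3 were high and control libraries 2 and 4 were low. Without control library 3 the log2 fold change was -2.22.

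Ccl17 (ENSMUSG00000031780), the other ligand of CCR4, lies on chr8:94810453-94812036 on the plus strand. It had 1, 0 and 1 read pairs in Dicer1-deleted libraries 1 to 3, or 0.0415, 0 and 0.0427 CPM, each under the level of 3 pairs. Control libraries 1 to 4 stood at 1.84, 0.180, 4.81 and 0.365 CPM, so the groups did not overlap, although control library 2 rested on only 4 pairs. Over the libraries summed, 2 pairs in the Dicer1-deleted group and 188 in the control group gave a depth-corrected ratio of 0.0146, with a 95% counting interval of 0.00175 to 0.0534 that does not include the spread between libraries. The mean was 0.0281 ± 0.0243 CPM in Dicer1-deleted libraries (SD, n = 3) and 1.80 ± 2.14 CPM in control libraries (SD, n = 4). The fitted log2 fold change of -5.82, with a standard error of 1.42, depends on how near-zero counts are handled.

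Cxcl13 (ENSMUSG00000023078), the B-cell attractant, lies on chr5:95956951-95961068 on the plus strand. It stood at 0.332, 0 and 0 CPM in Dicer1-deleted libraries 1 to 3, against 4.19, 12.7, 26.4 and 2.28 CPM in control libraries 1 to 4. Dicer1-deleted library 1, with 8 read pairs, was the only library of its group with any, while the lowest control library had 50. The mean was 0.111 ± 0.192 CPM in Dicer1-deleted libraries (SD, n = 3) and 11.4 ± 11 CPM in control libraries (SD, n = 4). The ratio of summed pairs, corrected for depth, was 0.00946 with a 95% counting interval of 0.00408 to 0.0187. The control libraries differed 11.6-fold among themselves, and here control library 2, which was low for Ccr7, Ccl17 and Ccl22, was the second highest. The fitted log2 fold change was -6.60 with a standard error of 1.37, the most negative of the 5 genes, and -5.76 without control library 3.

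Fscn1 (ENSMUSG00000029581), which encodes fascin, lies on chr5:142960343-142973185 on the plus strand. It stood at 0.166, 0.813 and 0.128 CPM in Dicer1-deleted libraries 1 to 3, against 0.587, 0.539, 0.365 and 0.228 CPM in control libraries 1 to 4. The groups overlapped, and Dicer1-deleted library 2 was the highest of all 7. The mean was 0.369 ± 0.385 CPM in Dicer1-deleted libraries (SD, n = 3) and 0.430 ± 0.165 CPM in control libraries (SD, n = 4), a difference smaller than the spread in either group. The fitted log2 fold change was -0.23 with a standard error of 0.82, and -1.54 without Dicer1-deleted library 2. The libraries rested on 3 to 16 read pairs each.

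**Figure D1:**
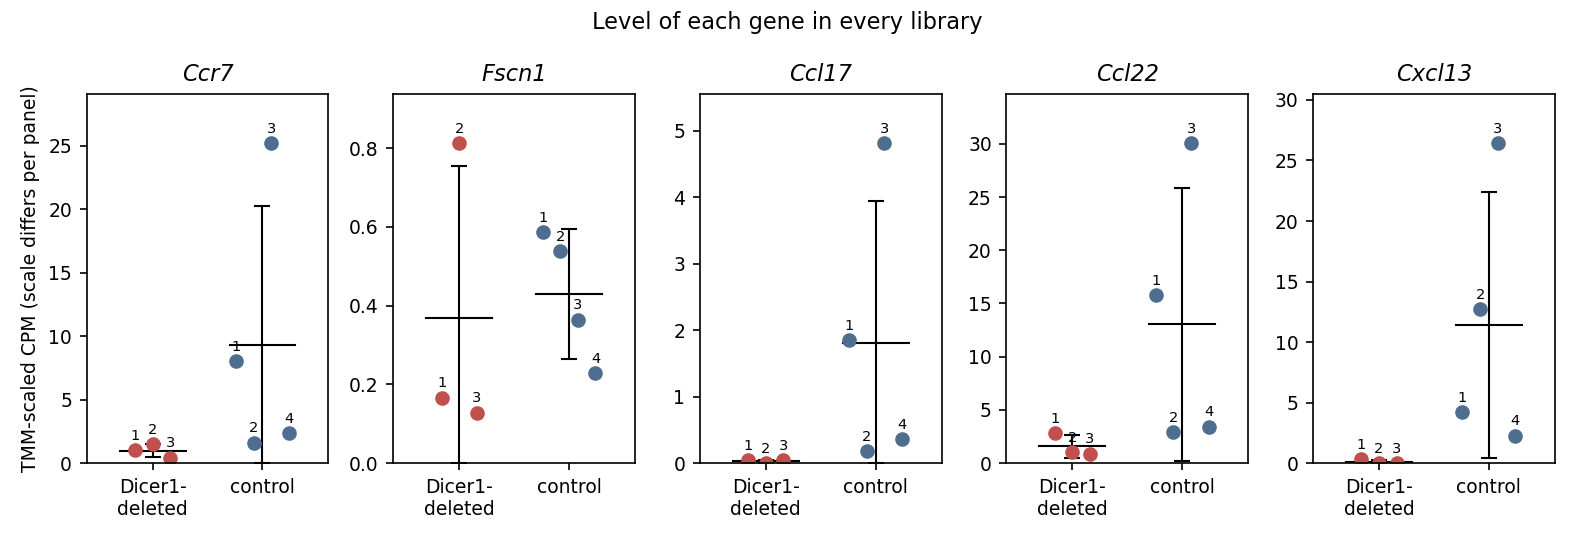
Level of each gene in every library, in CPM on a linear axis whose scale differs between panels; numbered points are libraries, the horizontal line is the mean and the error bar the SD, cut at 0. Ccr7, Ccl17, Ccl22 and Cxcl13 are lower in all 3 Dicer1-deleted libraries than in all 4 control libraries, control library 3 is the highest for these 4, and Fscn1 overlaps.

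By count, 4 of the 5 genes had every Dicer1-deleted library below every control library in scaled CPM. This order was found in 5.44% of the 16226 tested genes, while 3.86% had the opposite order. For Ccl22 it held in scaled CPM and not in the authors' RPKM. DESeq2 called the same 4 genes lower and edgeR called none of the 5. Since these contrasts also chose the genes, nothing is read from the counts. DESeq2 was also fitted without each of 2 libraries, where calls on members kept or lost are likewise only a description. Without Dicer1-deleted library 2 the calls on Ccl17 and Cxcl13 remained. Without control library 3 no call on a member remained, while 146 of the 158 genes then called lower were shared with the fit on all libraries. In that fit Ccl17 failed the count filter and so was not tested again, and the DESeq2 log2 fold change of Cxcl13 was -5.84, against -6.67 with all libraries. Within the L4 libraries the mean log2 CPM in Dicer1-deleted minus control was -1.0 for Ccr7, -2.44 for Ccl17, -1.59 for Ccl22, -9.21 for Cxcl13 and -0.66 for Fscn1. Within the L5 libraries it was -2.89 for Ccr7, -4.59 for Ccl17, -2.05 for Ccl22, -4.17 for Cxcl13 and -1.05 for Fscn1. Each code has 1 library in a group, 1 control in L4 and 1 Dicer1-deleted in L5, so these within-code values have no test, and the L4 value for Cxcl13 rests on 2 Dicer1-deleted libraries at 0.

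On the authors' RPKM, which also divides by transcript length and so allows genes to be set side by side, the control means ran from Cxcl13 at 9.78 ± 9.85 through Ccl22 at 5.72 ± 5.80, Ccr7 at 4.82 ± 5.85 and Ccl17 at 3.6 ± 4.39 to Fscn1 at 0.142 ± 0.0486 (SD, n = 4). The first 4 of these differ by less than their spread, and Fscn1 is far below them on this scale. In Dicer1-deleted libraries the RPKM means were 0.660 ± 0.477 for Ccl22, 0.453 ± 0.208 for Ccr7, 0.110 ± 0.104 for Fscn1, 0.0933 ± 0.162 for Cxcl13 and 0.0567 ± 0.0493 for Ccl17 (SD, n = 3). Among 34 chemokine ligands ordered by mean RPKM, Ccl22 ranked 23rd in Dicer1-deleted libraries and 21st in control libraries. Cxcl13 ranked 27th in Dicer1-deleted libraries and 20th in control libraries, and Ccl17 ranked 29th and 22nd in the same order of groups. The list was led in both groups by Pf4, platelet factor 4, at 4259 ± 2218 RPKM in Dicer1-deleted libraries (SD, n = 3) and 2993 ± 2364 RPKM in control libraries (SD, n = 4). The 3 lymphoid ligands were thus minor chemokine transcripts in both groups, beside Ccl7, Ccl2 and Ccl6 with means over 1000 RPKM.

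**Figure D2:**
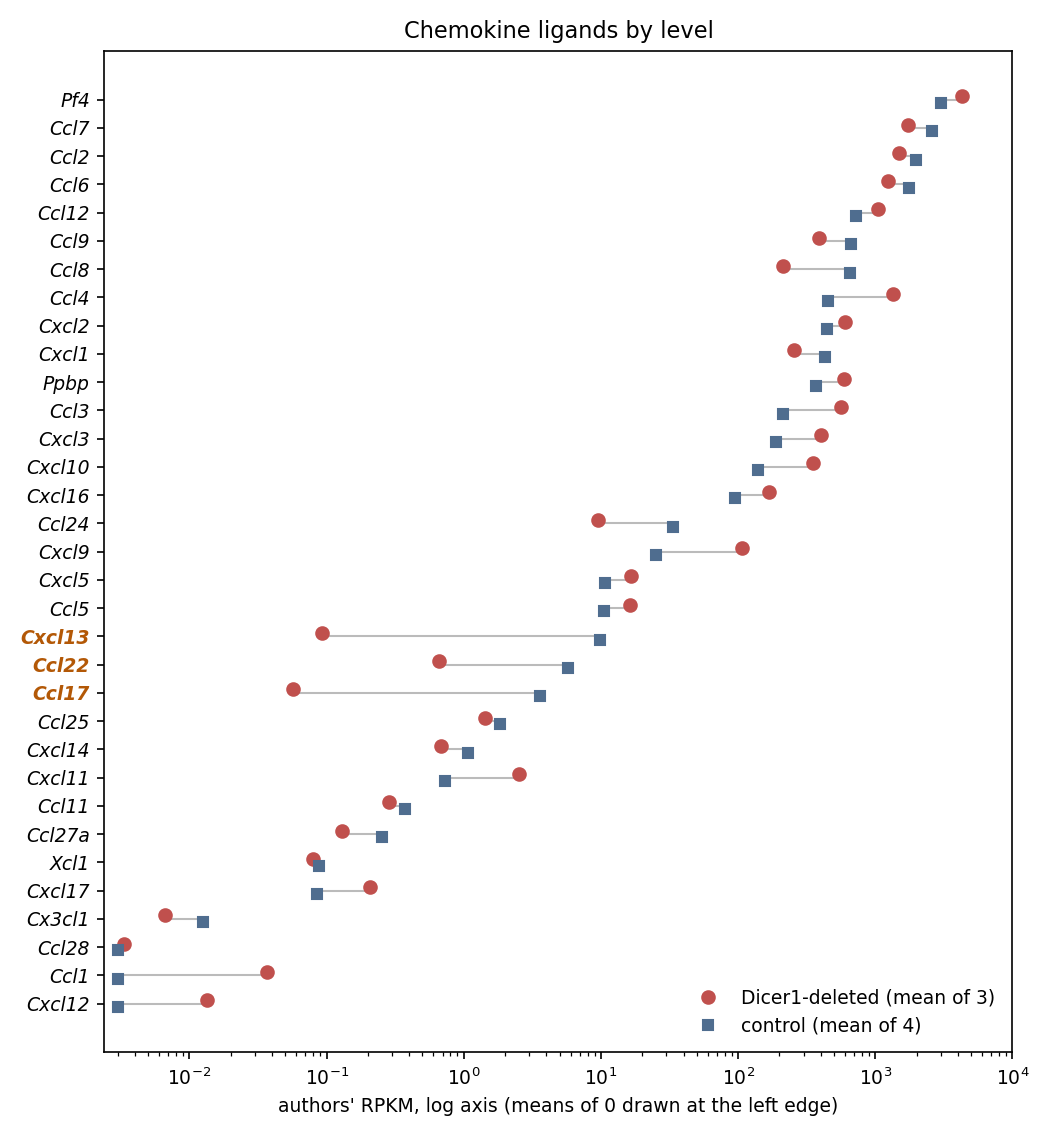
Mean RPKM of each chemokine ligand with a value above 0, on a log axis, with circles for Dicer1-deleted (mean of 3) and squares for control (mean of 4) libraries, ordered by the control mean and with Ccl17, Ccl22 and Cxcl13 in bold. Cxcl13, Ccl22 and Ccl17 stand at ranks 20 to 22 in control libraries, and their circles lie left of their squares.

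The 5 genes did not share 1 profile. As the measure of likeness, each gene's log2 CPM was centred on its mean over the 7 libraries, and the root mean square of the difference between 2 genes was taken, with smaller values for more similar profiles. The closest pair was Ccr7 and Ccl22, at 0.59, followed by Ccl17 and Ccl22 at 1.08 and by Ccr7 and Ccl17 at 1.29. Cxcl13 stood further off, at 2.20 from Ccl17, and the least similar pair was Fscn1 and Cxcl13 at 3.77. Centred within each group instead, so that the difference between the groups drops out, Ccr7 and Ccl22 were again closest, at 0.59, and Ccl17 and Ccl22 followed at 0.62. The distances of Ccl17 depend on the prior count of 1 added before taking logs: with 0.25 they were 1.64 from Ccl22 and 1.92 from Ccr7. These figures describe the same 7 libraries and carry no test.

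Ccl22 per read pair of Ccr7 was 2.72, 0.690 and 2.10 in Dicer1-deleted libraries 1 to 3, against 1.97, 1.81, 1.19 and 1.44 in control libraries 1 to 4. Dicer1-deleted library 2 was the lowest and the groups overlapped, so the receptor and the ligand were low together in the Dicer1-deleted group. Ccr7 per read pair of Fscn1 was 6.25, 1.81 and 3.33 in Dicer1-deleted libraries 1 to 3, against 13.6, 3.0, 69.1 and 10.4 in control libraries 1 to 4. Control library 2 thus fell inside the Dicer1-deleted range for this ratio, while the other 3 control libraries were above it. These are ratios of reads and are not corrected for transcript length.

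**Figure D3:**
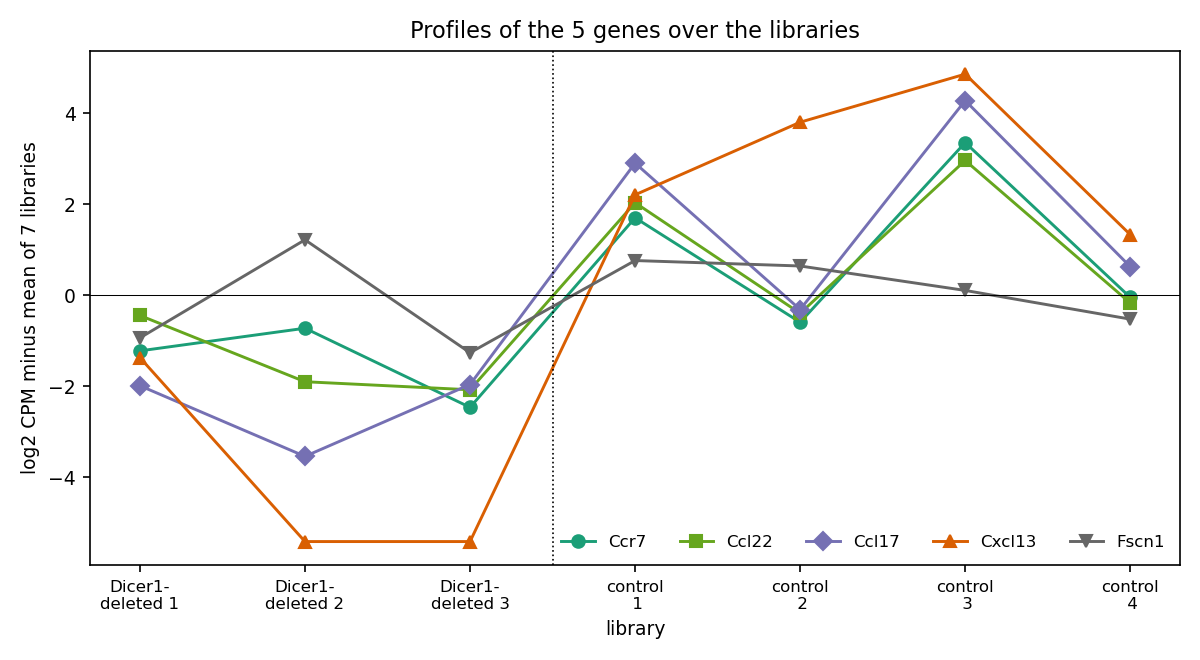
log2 CPM of each of the 5 genes minus its mean over the 7 libraries, by library, with Dicer1-deleted libraries left of the dotted line and control libraries right of it; lines only join the points of a gene. Ccr7 and Ccl22 run nearly together, Cxcl13 has its second highest point at control library 2, and Fscn1 has its highest point at Dicer1-deleted library 2.

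Of the other genes of at least 1 CPM on average, those with the most similar profile were named for each member. For Ccr7 these were Spry1, a feedback inhibitor of receptor tyrosine kinase signalling, at 0.53, then Ccl22 and then Zfp462, a zinc finger gene, at 0.73. Spry1 stood at 0.457, 0.508 and 0.384 CPM in Dicer1-deleted libraries 1 to 3, against 4.23, 0.539, 8.42 and 0.638 CPM in control libraries 1 to 4, so it too was high only in control libraries 1 and 3. For Ccl22 the closest were Ablim1, which encodes an actin-binding protein, at 0.49, Spry1 at 0.58 and Atp6v0d2, which encodes part of the vacuolar proton pump, at 0.58. Atp6v0d2 stood at 49.5, 33.9 and 43.1 CPM in Dicer1-deleted libraries 1 to 3, against 697, 78.4, 763 and 214 CPM in control libraries 1 to 4.

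For Ccl17 the closest were Kbtbd11 at 0.65, Slc9b2, a sodium-proton exchanger, at 0.69 and Ctsk, which encodes the collagen-cutting protease cathepsin K, at 0.72. Ctsk stood at 138, 61.5 and 89.7 CPM in Dicer1-deleted libraries 1 to 3, against 3269, 215, 2763 and 831 CPM in control libraries 1 to 4. Control libraries 1 and 3 were again the high ones for Ctsk, and no library of the Dicer1-deleted group reached the lowest control library. With a prior count of 0.25 in place of 1, only Slc9b2 of these 3 was again among the closest 3 to Ccl17, whose Dicer1-deleted counts are near 0. For Cxcl13 the closest were Rasgrp3, an activator of Ras proteins, at 0.85, Apbb1 at 1.0 and Cyp2ab1 at 1.34. Rasgrp3 stood at 0.291, 0 and 0 CPM in Dicer1-deleted libraries 1 to 3, against 1.47, 3.86, 6.09 and 0.729 CPM in control libraries 1 to 4. For Fscn1 the closest were Fbxo31 at 0.25, Uqcr11, a subunit of a respiratory chain complex, at 0.31 and the ribosomal protein gene Rpl29 at 0.32, all in a gene whose own spread around its mean was only 0.86. None of the 3 genes named for Ccr7, Ccl17, Ccl22 or Fscn1 was again among the closest 3 with profiles centred within each group, whereas Rasgrp3 and Apbb1 were so for Cxcl13.

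The partners of these genes were mostly scarce. Cxcr5, the receptor for CXCL13, stood at 1.87, 1.78 and 2.43 CPM in Dicer1-deleted libraries 1 to 3, against 1.13, 1.75, 2.04 and 1.91 CPM in control libraries 1 to 4, and the groups overlapped. Dpp4, a protease that trims chemokines, stood at 2.57, 2.08 and 1.11 CPM in Dicer1-deleted libraries, against 3.06, 0, 6.56 and 0.592 CPM in control libraries. Neither Cxcr5 nor Dpp4 passed edgeR, DESeq2 or voom, and their edgeR adjusted p was 0.996 each. Ccl19, a ligand of CCR7, was at 0 in all 7 libraries. The scavenging receptors Ackr2 and Ackr4, which take up many of these chemokines, were below the filter on low counts. Of 10 receptors and partners looked for, 5 matched a gene listed in any library. Ccr4, Ackr1, Ccl20 and the Ccl21 genes were not analysed here.

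Of 24 other chemokine ligands tested, 13 had a positive and 11 a negative log2 fold change, with a median of 0.59 against 0.03 over all genes tested. Without Dicer1-deleted library 2 that median was -0.03. None passed edgeR or voom, 7 had an unadjusted p under 0.05 in edgeR, and DESeq2 called 3 higher and 0 lower. Those 3, Cxcl9, Cxcl10 and Cxcl11, are interferon-induced ligands of CXCR3, which draws effector T cells and natural killer cells. Cxcl9 stood at 311, 510 and 193 CPM in Dicer1-deleted libraries 1 to 3, against 101, 77.2, 8.5 and 111 CPM in control libraries 1 to 4 (DESeq2 adjusted p = 0.0471, edgeR adjusted p = 0.368). Cxcl10 averaged 575 ± 230 CPM in Dicer1-deleted libraries (SD, n = 3) and 214 ± 19 CPM in control libraries (SD, n = 4), with a DESeq2 adjusted p of 0.00116 and an edgeR adjusted p of 0.162. Cxcl11 averaged 10.2 ± 2.85 CPM in Dicer1-deleted libraries (SD, n = 3) and 2.79 ± 0.439 CPM in control libraries (SD, n = 4), with a DESeq2 adjusted p of 6.5e-06 and an edgeR adjusted p of 0.111. For all 3 the groups did not overlap, and the control library lowest for Cxcl9 is library 3, the highest for the 4 non-overlapping members. The calls on Cxcl10 and Cxcl11 held in DESeq2 without Dicer1-deleted library 2 and without control library 3, and that on Cxcl9 was lost without Dicer1-deleted library 2.

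Genes of the migratory state of dendritic cells, other than Ccr7 and Fscn1, showed no common direction: of 36 tested, 19 had a positive and 17 a negative log2 fold change, with a median of 0.11. DESeq2 called 1 of them, Cacnb3, lower, and edgeR and voom called none, with 6 at an unadjusted p under 0.05 in edgeR. Cacnb3, a calcium channel subunit used as a marker of this state, stood at 0, 0.0508 and 0 CPM in Dicer1-deleted libraries 1 to 3, against 0.294, 0.808, 0.656 and 0.319 CPM in control libraries 1 to 4. Its DESeq2 adjusted p was 0.0124, its edgeR adjusted p was 0.237, and the DESeq2 call was lost without control library 3. Of 8 markers that define this state, 7 were tested, with 3 positive and 4 negative log2 fold changes. Their median was -0.48, and -0.08 without control library 3. The 8 markers summed to 29.8 to 152 CPM in Dicer1-deleted libraries and 44.6 to 108 CPM in control libraries. Most of this sum is Zmynd15 in every library except control library 3, so its range says little about the other markers. Zmynd15 had the highest mean among them and a positive log2 fold change, at 0.96. It stood at 121, 16.7 and 137 CPM in Dicer1-deleted libraries 1 to 3, against 32.3, 43.8, 15.8 and 96.6 CPM in control libraries 1 to 4. Lamp3, a lysosomal membrane protein of mature dendritic cells, averaged 11.4 ± 1.47 CPM in Dicer1-deleted libraries (SD, n = 3) and 15.8 ± 4.81 CPM in control libraries (SD, n = 4), and the groups overlapped. Slco5a1, another defining marker, had reads in control library 3 alone, at 0.693 CPM, and Il4i1 reached 7.33 CPM there, while its other 6 libraries lay between 0.404 and 1.20 CPM. The remaining ones, Nudt17, Apol7c and Bcl2l14, had mean levels up to 2.01 CPM in either group, and each overlapped. The part that cells of this state play in the Ccr7 result was not tested.

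Among 22 tested genes of conventional dendritic cells in general, 16 had a positive and 6 a negative log2 fold change, with a median of 0.38. None passed edgeR or voom, 11 had an unadjusted p under 0.05 in edgeR, and DESeq2 called 4 higher. Xcr1, the chemokine receptor of cross-presenting dendritic cells, stood at 5.27, 2.64 and 5.51 CPM in Dicer1-deleted libraries 1 to 3, against 0.880, 0.539, 0.474 and 1.5 CPM in control libraries 1 to 4 (DESeq2 adjusted p = 7.56e-04, edgeR adjusted p = 0.156). Itgax, which encodes the integrin CD11c, averaged 111 ± 43.5 CPM in Dicer1-deleted libraries (SD, n = 3) and 24.4 ± 12.1 CPM in control libraries (SD, n = 4), with a DESeq2 adjusted p of 3.94e-04 and an edgeR adjusted p of 0.15. The transcription factor genes Batf3 and Irf8 were also among the DESeq2 calls, with adjusted p of 0.0192 and 0.0108 in DESeq2 and of 0.254 and 0.207 in edgeR. Those on Xcr1 and Itgax held in DESeq2 without Dicer1-deleted library 2 and without control library 3. Flt3 and Zbtb46, which mark the conventional lineage, had log2 fold changes of -1.64 and -0.93 and overlapped between groups. The other negative genes were Cd209a, Irf4, Clec10a and Mgl2, with log2 fold changes of -3.86, -1.75, -1.32 and -2.0, and none of the 4 passed DESeq2 or edgeR. Cd209a, a lectin gene of monocyte-derived and conventional dendritic cells, stood at 3.74, 1.02 and 3.16 CPM in Dicer1-deleted libraries 1 to 3, against 38.1, 4.35, 109 and 2.51 CPM in control libraries 1 to 4, with an edgeR adjusted p of 0.381. Control libraries 1 and 3 were the high ones for Cd209a, as they were for Ccr7, Ccl17 and Ccl22, and the groups overlapped. Genes of this list thus lay on both sides, some with Xcr1 and Itgax above every control library and some with Cd209a on the side of the members.

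Genes that macrophages turn on with interleukin 4 through STAT6 went both ways, with 12 positive and 17 negative of 29 tested and a median of -0.17. None passed edgeR or voom, 11 had an unadjusted p under 0.05 in edgeR, and DESeq2 called 2 higher and 3 lower. Retnla, a secreted protein typical of interleukin-4-treated mouse macrophages, stood at 1.79, 2.69 and 2.14 CPM in Dicer1-deleted libraries 1 to 3, against 17.3, 14.3, 42.3 and 3.78 CPM in control libraries 1 to 4 (DESeq2 adjusted p = 2.41e-04, edgeR adjusted p = 0.181). Like Ccr7, Ccl17, Ccl22 and Cxcl13, Retnla was highest in control library 3. Fn1, fibronectin, averaged 193 ± 61.9 CPM in Dicer1-deleted libraries (SD, n = 3) and 832 ± 260 CPM in control libraries (SD, n = 4), with a DESeq2 adjusted p of 1.26e-06 and an edgeR adjusted p of 0.111. Klf4, a transcription factor gene, averaged 77.3 ± 4.97 CPM in Dicer1-deleted libraries (SD, n = 3) and 163 ± 32.6 CPM in control libraries (SD, n = 4), with a DESeq2 adjusted p of 0.00298 and an edgeR adjusted p of 0.214. Pparg, a nuclear receptor of the same programme, lay the other way, at 14.9 ± 2.91 CPM in Dicer1-deleted libraries (SD, n = 3) and 6.37 ± 1.95 CPM in control libraries (SD, n = 4), with a DESeq2 adjusted p of 0.0184 and an edgeR adjusted p of 0.233. The DESeq2 calls on Retnla, Fn1 and Klf4 held without Dicer1-deleted library 2 and without control library 3, and that on Pparg held in neither.

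Resident macrophage genes had the lowest median of the 8 lists plotted, at -0.70 over 27 tested, 7 positive and 20 negative. None passed edgeR or voom, 9 had an unadjusted p under 0.05 in edgeR, and DESeq2 called 6 lower and 0 higher. Vsig4, a complement receptor of tissue macrophages, stood at 0.374, 0 and 0.128 CPM in Dicer1-deleted libraries 1 to 3, against 6.0, 12.3, 5.54 and 3.56 CPM in control libraries 1 to 4 (DESeq2 adjusted p = 3.66e-09, edgeR adjusted p = 0.111). Lyve1, a hyaluronan receptor of perivascular macrophages, stood at 5.98, 1.37 and 1.88 CPM in Dicer1-deleted libraries 1 to 3, against 26.7, 89.8, 102 and 9.53 CPM in control libraries 1 to 4 (DESeq2 adjusted p = 7.7e-06, edgeR adjusted p = 0.165). Both groups of values were apart, and control libraries 2 and 3 were the high ones for Lyve1, as they were for Cxcl13. Folr2, the folate receptor beta, averaged 147 ± 37.7 CPM in Dicer1-deleted libraries (SD, n = 3) and 465 ± 327 CPM in control libraries (SD, n = 4), with a DESeq2 adjusted p of 0.0327 and an edgeR adjusted p of 0.324. DESeq2 also called Timd4, Cbr2 and Cd209g, and of the 6 calls those on Vsig4 and Lyve1 held both without Dicer1-deleted library 2 and without control library 3.

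The lymphotoxin and non-canonical NF-kB genes, which control Cxcl13 in lymphoid stroma, had a median of 0.14 over 13 tested, 9 positive and 4 negative. None passed edgeR, DESeq2 or voom, and 1 had an unadjusted p under 0.05 in edgeR. Relb, a transcription factor of this branch, averaged 12.8 ± 4.34 CPM in Dicer1-deleted libraries (SD, n = 3) and 11.6 ± 2.36 CPM in control libraries (SD, n = 4), and the groups overlapped. The actin bundling genes, relatives of Fscn1 in function, had a median of 0.16 over 20 tested, 13 positive and 7 negative. None passed edgeR or voom, 7 had an unadjusted p under 0.05 in edgeR, and DESeq2 called Marcks and Vasp higher and Pls3, Myo10 and Actn1 lower. Marcks, a membrane-bound actin crosslinker, averaged 292 ± 22.7 CPM in Dicer1-deleted libraries (SD, n = 3) and 139 ± 28.8 CPM in control libraries (SD, n = 4), with a DESeq2 adjusted p of 0.00162 and an edgeR adjusted p of 0.220. Pls3, the bundling protein T-plastin, stood at 40.3, 2.19 and 48.5 CPM in Dicer1-deleted libraries 1 to 3, against 111, 118, 244 and 332 CPM in control libraries 1 to 4 (DESeq2 adjusted p = 0.0179, edgeR adjusted p = 0.375). Without Dicer1-deleted library 2 the DESeq2 calls on Pls3 and Marcks remained, and without control library 3 those on Actn1 and Marcks.

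**Figure D4:**
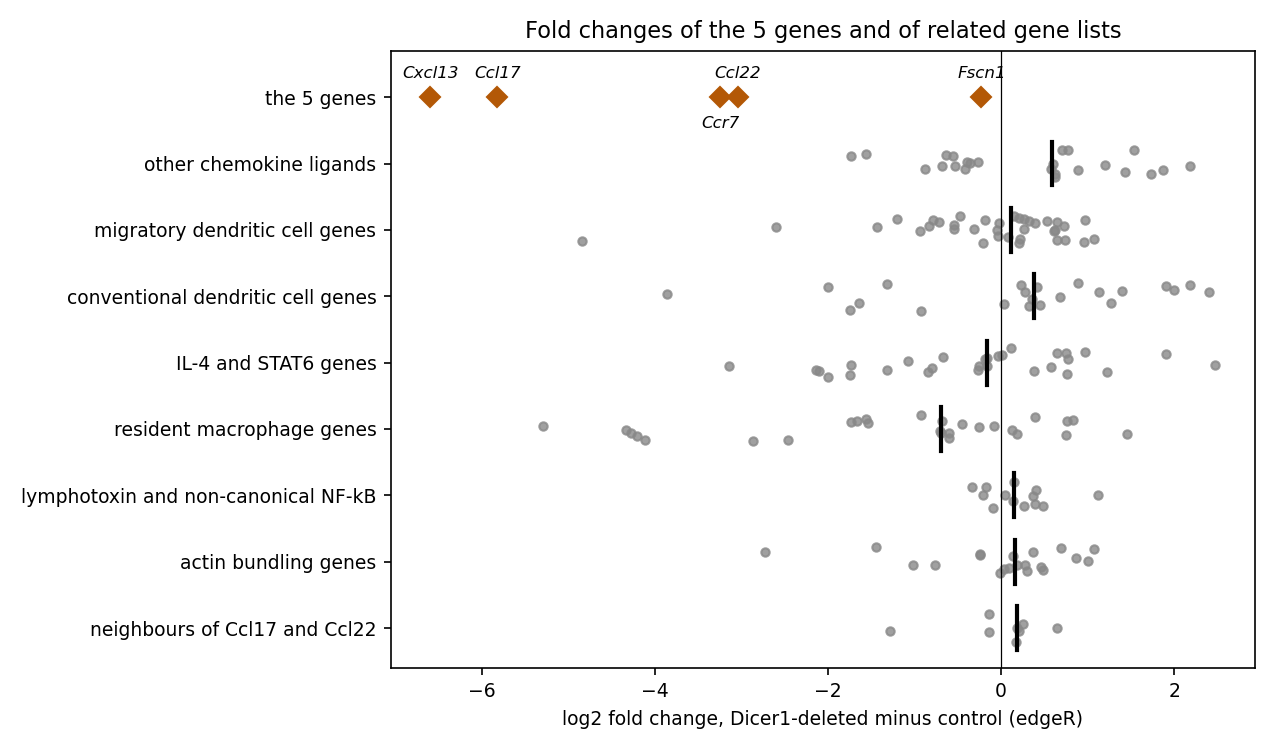
Fitted log2 fold change, Dicer1-deleted minus control, of the 5 genes (diamonds) and of the tested genes of 8 related lists (points, spread vertically for display), with the median of each list as a bar. Cxcl13, Ccl17, Ccl22 and Ccr7 lie between -6.60 and -3.04, Fscn1 lies at -0.23, and the list medians lie between -0.70 and 0.59.

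The genes next to Ccl17 and Ccl22 did not follow them. Of 8 tested neighbours, 5 had a positive and 3 a negative log2 fold change, with a median of 0.18, none passed edgeR, DESeq2 or voom, and 1 had an unadjusted p under 0.05 in edgeR. Ciapin1, an iron-sulfur cluster assembly factor, averaged 55.5 ± 13.5 CPM in Dicer1-deleted libraries (SD, n = 3) and 61.3 ± 10.6 CPM in control libraries (SD, n = 4). Coq9, of coenzyme Q synthesis, averaged 26.4 ± 8.68 CPM in Dicer1-deleted libraries (SD, n = 3) and 22.1 ± 13.7 CPM in control libraries (SD, n = 4). Cpne2, which encodes a copine, was the neighbour whose groups did not overlap, at 18.7 ± 1.92 CPM in Dicer1-deleted libraries (SD, n = 3) and 12 ± 0.441 CPM in control libraries (SD, n = 4), with an edgeR adjusted p of 0.420. Cx3cl1, which lies between Ccl22 and Ccl17, was below the filter, at 0.0285 ± 0.0493 CPM in Dicer1-deleted libraries (SD, n = 3) and 0.0542 ± 0.0642 CPM in control libraries (SD, n = 4). The remaining tested neighbours, Polr2c, Dok4, Arl2bp, Rspry1 and Fam192a, had log2 fold changes between -1.29 and 0.21 with overlapping groups.

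The sort was rich in macrophage transcripts in every library. The 12 macrophage markers summed to 13862 to 21428 CPM in Dicer1-deleted libraries and 13682 to 22178 CPM in control libraries. Of these, 8 had a positive and 4 a negative log2 fold change, and DESeq2 called 1, Lyz2, lower. Lyz2 averaged 57.0 ± 8.97 CPM in Dicer1-deleted libraries (SD, n = 3) and 138.9 ± 50.6 CPM in control libraries (SD, n = 4), without overlap. Its DESeq2 adjusted p was 0.0144 and its edgeR adjusted p 0.235. The DESeq2 call held without Dicer1-deleted library 2 and without control library 3. Markers of other cells moved along with the groups. The 8 B-cell markers, of which 4 were tested and 3 of those had positive fold changes, summed to 112 to 155 CPM in Dicer1-deleted libraries and 35.7 to 75.9 CPM in control libraries, while Cxcl13, the B-cell attractant, was lower. Neutrophil markers summed to 156 to 233 CPM in Dicer1-deleted libraries and 63.4 to 139 CPM in control libraries, with 5 of 5 tested positive, and endothelial markers to 39.6 to 72.1 CPM and 3.68 to 16.9 CPM in the same order of groups, with 3 of 3 tested positive. Most of the endothelial sum is Pecam1, which myeloid cells also carry, at 48.6 ± 18.3 CPM in Dicer1-deleted libraries (SD, n = 3) and 8.20 ± 4.07 CPM in control libraries (SD, n = 4). Natural killer cell markers summed to 5.34 to 13.5 CPM in Dicer1-deleted libraries and 1.80 to 3.65 CPM in control libraries. DESeq2 called 1 of them, Nkg7, higher, with an adjusted p of 0.041, and its edgeR adjusted p was 0.297. The call on Nkg7 was lost without control library 3. T-cell markers, among whose cells Ccr7 is also found, summed to 9.18 to 15.0 CPM in Dicer1-deleted libraries and 6.88 to 10.3 CPM in control libraries, with 8 of 10 positive. Fibroblast markers summed to 197 to 278 CPM in Dicer1-deleted libraries and 293 to 510 CPM in control libraries, with 3 of 8 positive. Most of the fibroblast sum is Pdpn, at 202 ± 48.9 CPM in Dicer1-deleted libraries (SD, n = 3) and 363 ± 95 CPM in control libraries (SD, n = 4), and the groups of the other 7 markers overlapped. Plasmacytoid dendritic cell markers summed to 121 to 164 CPM in Dicer1-deleted libraries and 202 to 236 CPM in control libraries, with 0 of 3 tested positive. Nearly all of that sum is Tcf4 and Bst2. Tcf4 averaged 82.65 ± 18.8 CPM in Dicer1-deleted libraries (SD, n = 3) and 153 ± 16.2 CPM in control libraries (SD, n = 4). DESeq2 called Tcf4 lower, a call lost without Dicer1-deleted library 2 or control library 3, and Bst2 overlapped. Siglech, Ccr9 and Ly6d averaged at most 0.466 CPM in either group, and the Siglech mean was higher in the Dicer1-deleted group. Epithelial markers stayed at or below 2.22 CPM in every library. The part of these cells in the values of the 5 genes was not tested.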

How the data were processed

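RNA-seq of F4/80+ tumour-associated macrophages was deposited as 1 table per library. Per the file headers, the authors give unique read counts, expected counts (estimated counts that share out multiply placed reads) and RPKM per Ensembl gene. Bowtie2 is named in the submitters' processing notes; the genome build, annotation and counting program were not stated there. All deposited unique counts were even, so that both mates of a pair count. Multiply placed reads stay out of the unique counts and could lower genes with near copies.

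The members and gene lists were chosen with earlier results of these data known. Genes were named by a rule: up to 4 of each list that passed DESeq2 without overlap between groups and with at least 1 CPM on average, every tested gene of the small lists, and for each member the 3 most similar genes. A few further ones (Klf4, Flt3, Zbtb46, Cd209a, Irf4, Clec10a, Mgl2, Relb, Vasp, Timd4, Cbr2 and Cd209g) were added after their values were seen. So were several cell type markers that did not pass DESeq2, among them Pdpn and Bst2. Symbols came from GENCODE M21. Library totals were 42974524 to 51152370 unique reads; intervals from counts cover counting error only. The main test was edgeR 4.0.16 (filterByExpr, TMM, quasi-likelihood) in R 4.3.3 on unique counts, 3 Dicer1-deleted against 4 control libraries, no covariate, Benjamini-Hochberg threshold 0.05. Alternatives were DESeq2 1.42.0, limma-voom 3.58.1, other filters and size factors, rounded expected counts, the L code as covariate, and each library left out. The fits were tested on simulated data. CPM is TMM-scaled; log2 CPM used a prior count of 1. The RPKM are the authors' own. Motifs and seeds were searched in RefSeq promoters and in the longest GENCODE 3′ UTR.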

Additional observations from a re-analysis of the deposited data

Results flagged for a closer look

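In the control group, 1 library lay far from the other 3 for 2 named genes, by the ratio of its gap to the group's range. For Folr2, control library 2 stood at 953 CPM against 264 to 325 CPM in the other control libraries, a ratio of 0.911. For Il4i1, control library 3 stood at 7.33 CPM against 0.404 to 1.17 CPM in the other control libraries, a ratio of 0.889. Chance flags a small share of groups examined in this way, and the critical value for 4 samples is set so that about 5% of such groups pass it.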

How the results depend on the processing

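No paired analysis was possible because the labels give the libraries no shared replicate numbers; the numbers used here follow the order of deposition. The count of genes past an adjusted p of 0.05 depended most on the tool. edgeR called 1 higher and 3 lower in the Dicer1-deleted group; DESeq2 called 150 and 255, voom 0 and 2, edgeR without a count filter 24 and 18, edgeR with at least 10 CPM in 3 libraries 0 and 1, and edgeR with the L code as covariate 0 and 0. Leaving out 1 library gave 0 to 1 higher and 0 to 2 lower. In DESeq2, 111 and 227 genes passed without Dicer1-deleted library 2, and 146 and 158 without control library 3; these fits were chosen after seeing the data. Fscn1 changed sign without Dicer1-deleted library 1, 0.12, without Dicer1-deleted library 3, 0.18, and without control library 1, 0.005. Its log2 fold change ranged from -1.54 to 0.18 over the libraries left out, and was -1.54 in DESeq2 without Dicer1-deleted library 2. Cxcl13 ranged from -12.04 to -5.76, the first without Dicer1-deleted library 1, when the rest of its group is at 0. The other 3 stayed negative with 1 library left out: Ccr7 from -3.66 to -2.03, Ccl22 from -3.77 to -2.22 and Ccl17 from -6.18 to -5.33, though Ccl17 failed the count filter without control library 1, 3 or 4. With other tools and settings they also stayed negative, and the L code covariate gave -2.21 for Ccr7 and -2.11 for Ccl22. Of 10 list medians, 7 had the other sign under at least 1 alternative. The causes were not tested. Fscn1 and Ccl17 rest on few read pairs.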

Other observations

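With profiles centred within each group, so that the difference between the groups drops out, the 3 genes most like Ccr7, and likewise those most like Ccl17, included none of the 3 named over all libraries. For Ccr7 they were Chil3, at a root mean square difference of 0.37 on the log2 scale, Chil4 at 0.39 and Ear2 at 0.41. Chil3 and Chil4 encode chitinase-like proteins of mouse macrophages, and Ear2 a ribonuclease of eosinophils and macrophages. Chil4 was also the gene most like Ccl22, at 0.33. For Ccl17 they were Dcstamp, a gene of macrophage and osteoclast fusion, at 0.43, then Arap2 at 0.50 and Tfrc, the transferrin receptor, at 0.52. For Cxcl13 they were Rasgrp3 at 0.18, Lyve1 at 0.73 and Apbb1 at 0.74. These values describe 7 libraries and carry no test.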
